A study of Homo sapiens with 8 samples.

Results

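Read-through genes are annotated units whose transcript runs from an upstream gene through its downstream neighbour, and their symbols join the names of both parents with a hyphen. Of 18564 genes in the deposited table, 59 had a symbol of this form with both parts also listed as genes, and 45 of these, whose estimated counts averaged 10 or more over the libraries, are described here with their 90 parent genes. The members were thus chosen by their names and their mean count, and all 45 passed the filter on low counts that preceded the tests. The cells were LP-1, an established line from a patient with multiple myeloma, and a bortezomib-resistant (BR) derivative that had been kept for 2 months with bortezomib, a proteasome inhibitor. Wild-type (WT) and BR cells in RPMI-1640 with serum received vehicle (DMSO) or SI-2, a small-molecule inhibitor of the coactivator SRC-3, at 25 nM for 24 h. Each of the 4 conditions had 2 libraries of total RNA, 8 in all. The BR cells were compared as 1 line. The study describes the expression data of BR cells as coming from independent experiments, whereas the labels do not say of which cultures the libraries were made, so p-values measure the spread between these libraries, which may be partly technical.

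RNA polymerase normally ends transcription soon after the cleavage and polyadenylation signal of a gene. When cleavage fails or is skipped, the polymerase can continue into the next gene on the same strand, and splicing can then join an exon of the upstream parent to an exon of the downstream parent. Such a chimeric transcript shares nearly all of its exons with its parents, and often little more than the sequence across the new splice junction belongs to it alone. Some of these transcripts code for fusion proteins, while others carry early stop codons and are substrates of nonsense-mediated decay. A program that divides shared reads among transcripts therefore has few reads of its own kind with which to place a count on the read-through gene.

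The part of each read-through transcript that was its own was small. Transcripts with the same RefSeq accession were found in GENCODE v29 (GRCh38) for 35 of the 45 members and for their parents. A median of 3.17% of all 50-base windows along these transcripts occurred in no transcript of either parent (range, 0.839% to 28.6%), and in 30 of the 35 the share was under 10%. With windows of 100 bases the median was 6.48% (range, 1.75% to 35.2%). These shares are of the GENCODE transcripts, whose lengths were not compared with those of the transcripts behind the counts. Where the latter were longer or shorter, the shares would differ. In 31 members a single splice junction joined an exon of, or overlapping, the first parent to one of the second. A stretch across such a junction can tell a read-through read from a parent read. The following 30-base sequences span the junction in 8 members to which the results below return. They run 5′ to 3′ on the strand of the gene, with the exon before the junction, on the side of the first parent, in lower case and the exon after it, on the side of the second parent, in capitals. In TRIM39-RPP21 and TMED7-TICAM2 these exons overlap exons of the parents, but the exon ends at the junction are not both ends of parental exons. In the GENCODE transcript of RNF103-CHMP3, 3 introns and 276 of 1086 windows of 50 bases were in neither parent. Most of those windows lay outside the printed junction.
CORO7-PAM16: gacgaggacgagtggGCCAAGTACCTGGCC
TRIM39-RPP21: tactgggaggtggagGCCGCCCATTGTGTC
JMJD7-PLA2G4B: gaggccatggagaagGCAGAGGTGTCCAGG
TMED7-TICAM2: aagagtggcctattgGCACAGTGTGGATAC
TGIF2-RAB5IF: ctgtcagtgctgcaaGATGAATTTTTAGAT
RNF103-CHMP3: atctggctggttcagGTCAATGAGTGGTCA
RPS10-NUDT3: accgaattccagtttGTGCTACTCGTGAGC
COMMD3-BMI1: atggaacaattacagGATTTTTTATCAAGC
In GRCh38 coordinates, which were not those of the submitters' own build (hg19), the exon bases on either side of the skipped stretch lay at chr16:4343291-4355286 (minus strand) for CORO7-PAM16, chr6:30341896-30345298 (plus strand) for TRIM39-RPP21, chr15:41836551-41840158 (plus strand) for JMJD7-PLA2G4B and chr5:115581197-115616318 (minus strand) for TMED7-TICAM2. They lay at chr20:36578966-36607715 (plus strand) for TGIF2-RAB5IF, chr2:86542312-86620330 (minus strand) for RNF103-CHMP3, chr6:34341972-34418369 (minus strand) for RPS10-NUDT3 and chr10:22319018-22326431 (plus strand) for COMMD3-BMI1. The CORO7-PAM16 transcript was 3284 bases long, and 47 of its 3235 windows of 50 bases were in neither parent, while 86.3% lay in CORO7 and 12.2% in PAM16. None of the printed junctions occurred in a transcript of a parent.

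The libraries were of nearly equal depth, with 17997771 to 18570027 estimated counts. Of 11 plasma cell markers, 10 were above 0 in every library. XBP1 had 12060 to 19712 counts and SDC1 301 to 688, whereas SLAMF7 had only 15.3 to 27.7 and FCRL5 0 to 5. FGFR3, of the t(4;14) translocation, had 11611 to 25951. Library 2 of the BR cells with SI-2 stood apart. The fibroblast markers COL1A1, COL1A2 and PDGFRB summed to 1240 counts there and to between 3 and 10 in the other 7 libraries, and the epithelial markers EPCAM, KRT8 and CDH1 to 196 against 61.3 to 88.4. EPCAM itself had 26 counts in that library and at most 1 elsewhere. The part of this RNA in the results that follow was not tested. Several, but not all, of the counts over the members that involve that library were also taken without it. The DESeq2 calls and the tests of summed loci were made with it only.

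Most members were minor products of their loci. The mean count ran from 11.005 (PALM2-AKAP2) to 3232 (COMMD3-BMI1), with 25 members under 100 and 3 of at least 1000. Within the summed count of a read-through gene and its parents, the read-through gene took a median of 6.09% (range, 0.203% to 78.2%), and 27 members took under 10%. On the FPKM scale, which allows for transcript length, 27 members had a mean level below both parents, 15 lay between them and 3 lay above both. Those 3 were TVP23C-CDRT4, ARMCX5-GPRASP2 and PRH1-TAS2R14, and their mean levels were 4.32, 0.226 and 0.628 FPKM.

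The highest counts were those of COMMD3-BMI1. It combines COMMD3, a regulator of endosomal sorting, with BMI1, a subunit of the Polycomb complex that ubiquitinates histone H2A. Its counts were 3179 and 3150 in WT cells with vehicle, 3720 and 2887 with SI-2, 2599 and 3421 in BR cells with vehicle, and 3609 and 3293 with SI-2. The groups overlapped, and its share of the locus stayed between 22.3% and 26.4% in all libraries. RPL36A-HNRNPH2, which joins a ribosomal protein gene to an RNA-binding protein gene, had 1533 to 2592 counts and took 23.0% to 36.9%. ANKHD1-EIF4EBP3 had a mean of 1302 counts, LY75-CD302 of 506 and ISY1-RAB43 of 504. ISY1-RAB43, from a splicing factor gene and a small GTPase gene, took 33.1% to 51.9% of its locus. LY75 and CD302 code for C-type lectin receptors, and LY75-CD302 took 17.9% to 30.7%.

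In some of the members with the largest shares the parents were hardly counted. ARMCX5-GPRASP2 held 58.9% to 95.9% of its locus with only 17.97 to 29.2 counts, since ARMCX5 was at 0 in 7 libraries and at 4 in the other, and GPRASP2, a sorting protein for G protein-coupled receptors, had at most 10.4. PRH1-TAS2R14, from a salivary protein gene and a bitter taste receptor gene, had 11.5 to 30.4 counts and shares of 32.4% to 75.3%. TVP23C-CDRT4 had 136 to 449 counts, while its parent CDRT4 ran from 0 to 258. ANKHD1-EIF4EBP3 held 23.4% to 41.0%, with EIF4EBP3, a repressor of cap-dependent translation, at 0 to 11.8 counts.

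The decimals of the counts showed where reads had been divided. The deposited counts have 2 decimals, and a read that fits several genes is split among them, which breaks the count of each. Among the 13571 genes that averaged 10 counts or more, 45.5% of the values were whole (within 0.005), against 8.89% of the members' values and 10.1% of the parents' values. When the read-through gene and both parents were added up, 15 of the 45 loci gave a whole number (within 0.025, to allow for rounding) in all 8 libraries, that is, in all 120 sums. In those loci only 5 of the 105 read-through values of at least 0.5 were themselves whole by the same tolerance. The broken parts of the 3 counts thus cancelled within the locus. A further 11 loci had whole sums in some libraries and 19 in none.

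CORO7-PAM16 was among the 15 loci. CORO7 codes for coronin 7, an actin regulator of Golgi traffic, and PAM16 for a subunit of the mitochondrial protein import motor. In WT vehicle library 1 the counts were 214.82 for CORO7-PAM16, 4410.63 for CORO7 and 174.54 for PAM16, which sum to 4799.99. In BR library 2 with SI-2 they were 0, 6561 and 215, all whole. Both parents had whole counts (within 0.025) wherever a member of these 15 loci stood at 0 or 0.01. JMJD7-PLA2G4B was at 0 in WT vehicle library 2, where its parents JMJD7 and PLA2G4B had exactly 213 and 422 counts, and it had 34.64 in WT vehicle library 1, where they had 224.18 and 402.18. TRIM39-RPP21 was at 0 in both BR vehicle libraries, where TRIM39 had 452 and 442 counts and RPP21 had 314 and 272. TMED7-TICAM2 was at 0 in BR vehicle library 2 and BR SI-2 library 2, where TMED7 had 1364 and 1379 counts and TICAM2 had 60 and 62.

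**Figure D1:**
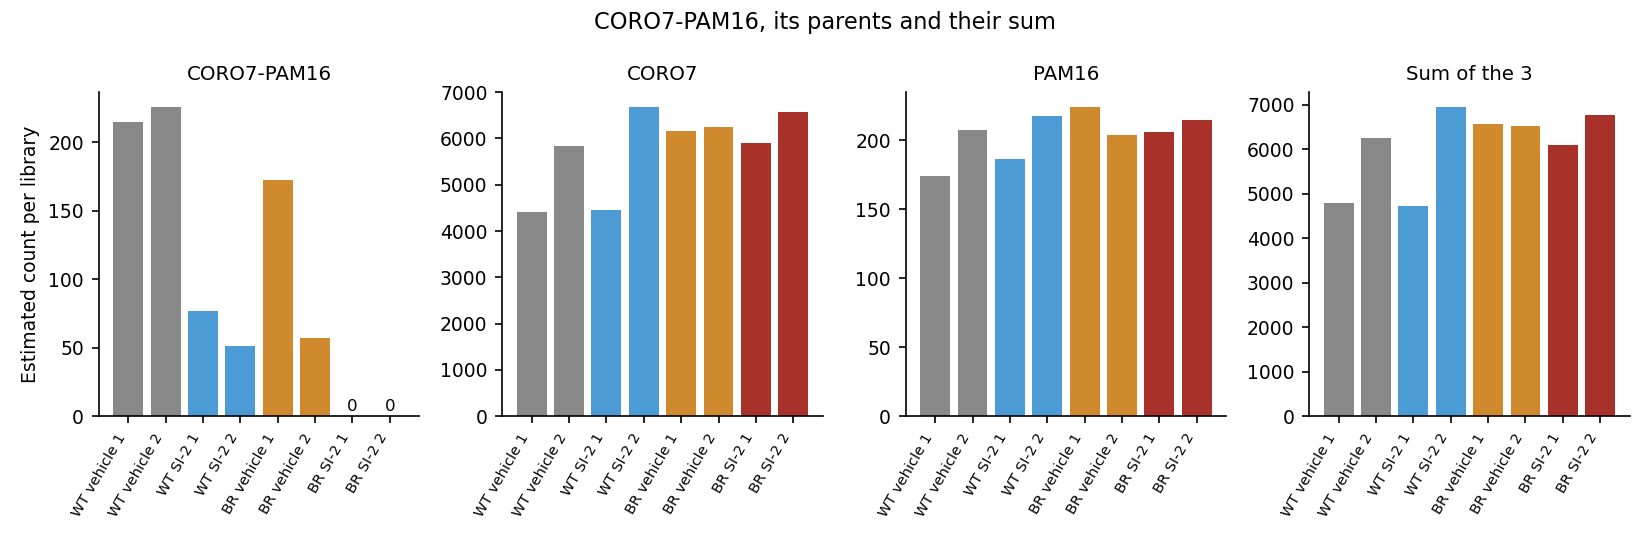
Estimated counts (vertical axes, each starting at 0) of CORO7-PAM16, CORO7, PAM16 and their sum in the 8 libraries (grey, WT vehicle; blue, WT SI-2; orange, BR vehicle; red, BR SI-2). CORO7-PAM16 ran from 226 down to 0 while the sum stayed between 4715 and 6937.

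Several members were empty in some libraries and clearly counted in others. In 10 of the 45 (22.2%) a library was under 0.5 counts and another reached at least 30, against 68 of the 13571 genes (0.501%) and 2 of the 90 parents (2.22%). Among genes with a mean under 100 counts the figures were 40% of 25 members and 2.01% of 3279 genes. Without library 2 of BR cells with SI-2, the 10 members were still counted and the number over all genes fell to 30. In 7 members the contrast lay within a condition, with 0 in a library and at least 20 in its replicate. That was the case in 43 of all the genes (0.317%), and without the BR cells with SI-2 in 6 members and 21 genes.

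JMJD7-PLA2G4B, from genes for a protein hydroxylase and a cytosolic phospholipase A2, parted in all 4 conditions. It had 34.6 and 0 counts in WT cells with vehicle, 0 and 91.4 with SI-2, 121 and 0 in BR cells with vehicle, and 119 and 0.01 with SI-2. High and empty libraries therefore stood side by side in every condition. ZNF660-ZNF197, which joins a pair of zinc finger genes, had 75.8 counts in WT SI-2 library 2 and 82.5 in BR vehicle library 2, and it was at 0 in the other 6 libraries. TMED7-TICAM2 joins a cargo receptor of the early secretory pathway to an adaptor of Toll-like receptor 4. It had 47.3 and 110 counts in WT cells with vehicle, 30.1 and 69.4 with SI-2, 69.5 and 0 in BR cells with vehicle, and 0.33 and 0 with SI-2. TGIF2-RAB5IF, from a homeobox corepressor gene and a gene for a RAB5-interacting factor, had 0 and 13.3, 0 and 0, 64.6 and 18.5, and 0 and 0 counts in the same order. All 4 of its SI-2 libraries were at 0, and so was 1 of its vehicle libraries.

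**Figure D2:**
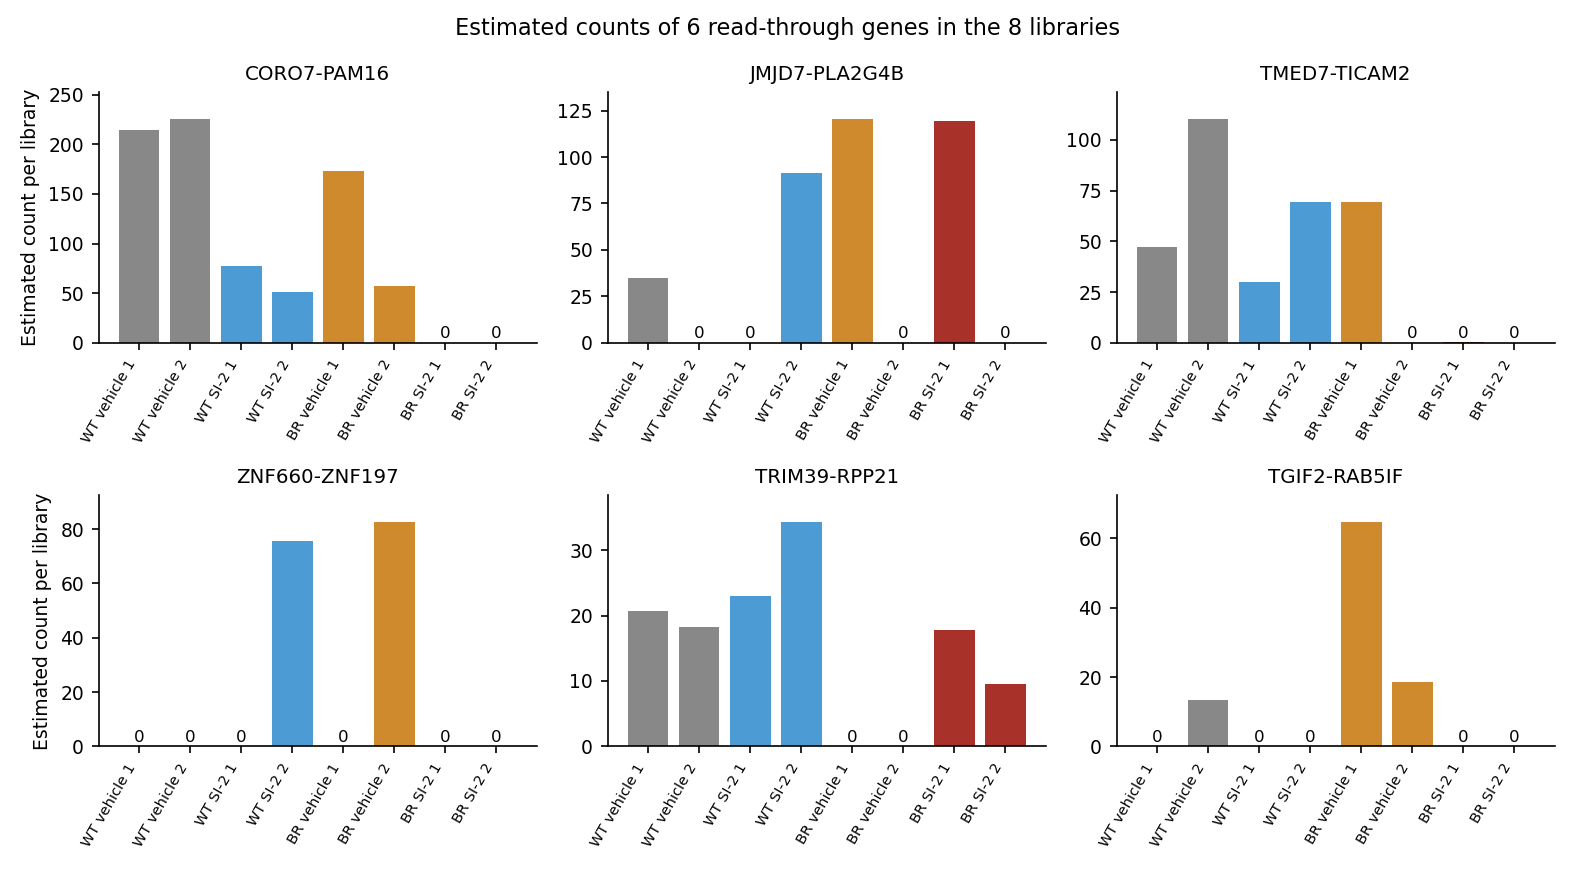
Estimated counts (vertical axes) of 6 read-through genes in the 8 libraries (horizontal axes; grey, WT vehicle; blue, WT SI-2; orange, BR vehicle; red, BR SI-2), with libraries under 0.5 counts marked 0. JMJD7-PLA2G4B had a filled and an empty library in each of the 4 conditions, whereas CORO7-PAM16 was at 0 in both BR libraries with SI-2 and above 50 in the other 6.

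The spread between replicates was measured as the absolute log2 ratio of the 2 libraries of a condition, after scaling by TMM and adding 0.5 counts, with the median taken over the 4 conditions. It had a median of 0.50 over the 45 members, 0.28 over the parents and 0.27 over all 13896 genes tested. For the sums of each read-through gene and its parents the median was 0.21, and 39 of the 45 members spread more than their own sum did. Parents made up most of the count in most sums, and such a sum tends to spread less than a gene of low count. Sums of unrelated genes were not taken for comparison. In 12 members the spread was at least 1, that is, a 2-fold difference in the middle condition, against 2.43% of all genes tested (337 genes). Over the 3 conditions without BR cells with SI-2, 36 members spread more than their sum, and 11 had a spread of at least 1, against 2.84% of all genes. The spread was wider among genes of low count. Among genes with a mean of 10 to 100 counts, the median was 0.79 for 25 members and 0.40 for 3233 genes, and from 100 to 1000 counts it was 0.47 for 17 members and 0.24 for 5913 genes. The 3 members above 1000 counts had a median of 0.26, against 0.21 for 4377 genes.

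Over all genes, broken counts as such did not go with a wider spread than whole counts. From 100 to 1000 counts, 2354 genes with whole counts in all libraries had a median spread of 0.26, and 3148 genes with broken counts in at least 6 libraries had 0.23. Among the members, the median spread was 0.63 in the 15 loci with whole sums and 0.46 in the other 30. Whether the division of reads contributed to the spread was not tested. Across the 45 members, Spearman's rho of the spread with the mean count was -0.48 and with the share of the locus -0.47. Across the 35 members with a matched transcript, rho of the spread with the share of GENCODE windows in neither parent was 0.11. These correlations are across genes of the same 8 libraries, and genes are not independent replicates. RNF103-CHMP3 is from genes for an endoplasmic reticulum ubiquitin ligase and a subunit of the ESCRT-III complex. In its GENCODE transcript, 25.4% of the windows were in neither parent. It was at 0 and at 33.0 counts in the WT SI-2 libraries.

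**Figure D3:**
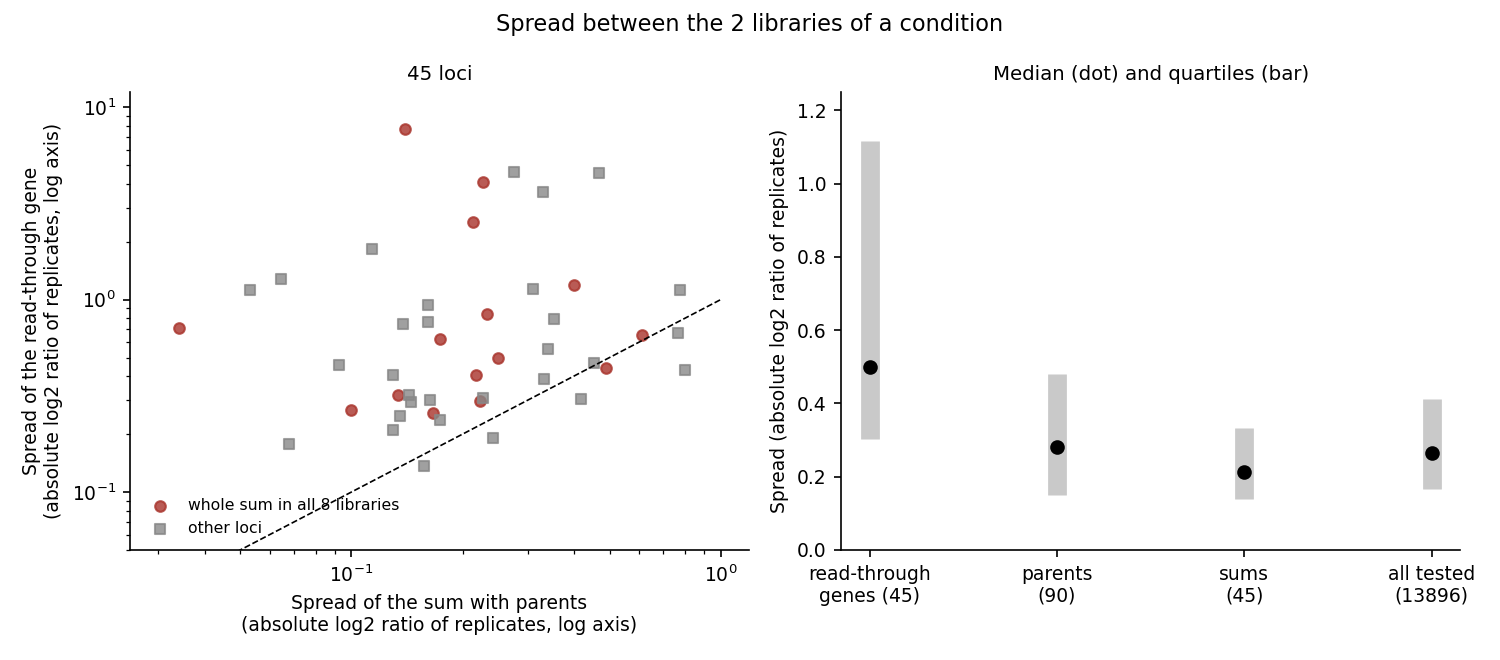
Left, spread between replicates (absolute log2 ratio, log axes) of each read-through gene against that of its sum with both parents, with the line of equality, for the 15 loci with whole sums (circles) and the other 30 (squares). Right, median (dot) and quartiles (bar) of the spread by gene set. Of the 45 points on the left, 39 lie above the line, and the medians on the right are 0.50, 0.28, 0.21 and 0.27. Parents made up most of the count in most sums.

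**Figure D4:**
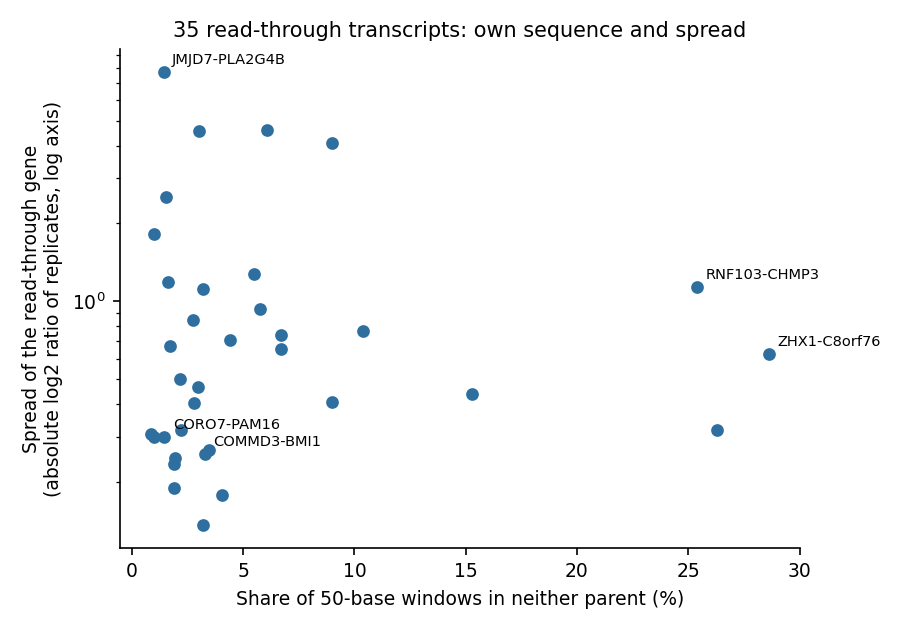
Spread between replicates (log axis) of 35 read-through genes against the share of 50-base windows of their GENCODE transcript found in neither parent (percent). The lengths of these transcripts were not compared with those behind the counts. JMJD7-PLA2G4B, with 1.43% of its windows in neither parent, lies at the top, and the 3 members with over 20% of their windows in neither parent (ZHX1-C8orf76, TMEM56-RWDD3 and RNF103-CHMP3) had spreads of 0.63, 0.32 and 1.14.

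Among members with a mean of at least 50 counts, 5 stood out by the largest gap between replicates. RNF103-CHMP3 had 49.01 and 105 counts in WT cells with vehicle, 0 and 33.0 with SI-2, 50.1 and 99.97 in BR cells with vehicle, and 23.9 and 59.4 with SI-2. Its second library was the higher in every condition, while its parent RNF103 was lower in the second library each time (3414 against 4435 counts in WT cells with vehicle). ATP5MF-PTCD1, from an ATP synthase subunit gene and a gene for a mitochondrial RNA-binding protein, had 33.8 counts in WT SI-2 library 1 and 174 to 376 in the other 7. RPS10-NUDT3 had 39.6 and 389 as second libraries of the vehicle conditions, beside 122 and 72.8, while RPS10, a ribosomal protein gene, stayed between 9102 and 12040. ABHD14A-ACY1, which includes the aminoacylase gene ACY1, had 125 and 34.2 counts in BR cells with SI-2. TNFAIP8L2-SCNM1 had 31.4 and 124 in WT cells with vehicle, where SCNM1, a splicing factor gene, had 1606 and 921. Over the 180 pairs of replicates of the 45 members, the read-through gene and its first parent moved in opposite directions in 82 (45.6%), and the read-through gene and its second parent in 102 (56.7%). Pairs in which a gene did not differ counted as not opposite. Other pairs of genes were not counted for comparison.

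The comparison of BR with WT cells under vehicle asked which genes differ in the resistant line before SI-2 is added. The quasi-likelihood test of edgeR, after Benjamini-Hochberg adjustment, called 0 of 45 members, as it did 0% of 13896 genes. At an unadjusted p under 0.05 it gave 7 members (15.6%, 2 higher and 5 lower in BR), where the share of all genes was 3.89%. DESeq2 called 3 members at an adjusted p under 0.05 (all genes, 0.201%), all lower in BR, and limma on log2(FPKM + 0.1) called 1 of these, TRIM39-RPP21. The median log2 fold change was -0.17 for the members and 0.00 for all genes (0.000608 before rounding), and 11 members but 0 of the 45 sums differed at least 2-fold. Here and below, the share of all genes at least 2-fold apart was not counted. The median absolute log2 fold change was 0.52 for the members, 0.17 for all genes and 0.14 for the sums. Parents made up most of the count in most sums, and genes of low count spread more between replicates. The sums gave 3 loci at an unadjusted p under 0.05 and the 85 tested parents gave 3.

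TRIM39-RPP21 joins a ubiquitin ligase gene to the gene of an RNase P subunit. It had 20.8 and 18.2 counts in WT cells with vehicle and 0 in both BR libraries with vehicle. From the mean of the WT libraries that is at least 6.65-fold lower when a floor of 3 counts per library is used. The limit was 7.18-fold with WT vehicle library 1 alone and 6.12-fold with library 2 alone. The floor covers counting error only, and not reads of the locus that were placed on a parent. The groups did not overlap, which was so for 14 members lower in BR and 4 higher (all genes not counted). The adjusted p was 0.188 with edgeR and 0.0173 with DESeq2 (0.0173 to 1 over all alternatives). Its parents differed by a log2 fold change of -0.00 ± 0.22 (SE) for TRIM39 (-0.0045) and 0.07 ± 0.18 for RPP21, and the sum of the 3 by -0.01 ± 0.18.

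ANKHD1-EIF4EBP3 was the only member with over 1000 counts among those called by DESeq2. It had 1628 and 1716 counts in WT cells with vehicle and 913 and 939 in BR cells with vehicle, a log2 fold change of -0.89 ± 0.18 (SE, 2 libraries each). The groups were far apart compared with their replicates, and the adjusted p was 0.505 with edgeR and 0.0154 with DESeq2. For ANKHD1, an ankyrin repeat gene, the values were 2572 and 2466 in WT cells against 2991 and 2138 in BR cells, and its log2 fold change was -0.00 ± 0.25 (-0.0014). The sum of the locus differed by -0.29 ± 0.22. C8orf44-SGK3, which ends in the gene of the kinase SGK3, had 127 and 178 counts in WT cells with vehicle against 52.9 and 53.9 in BR cells. Its log2 fold change was -1.54 ± 0.28, with an adjusted p of 0.388 by edgeR and 0.0159 by DESeq2. SGK3 had 410 and 295 against 367 and 178 counts, and the sum of the locus had a change of -0.49 ± 0.28 (edgeR adjusted p = 0.968).

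With SI-2 against vehicle in BR cells, the comparison of the treatment within the resistant line, edgeR called 0 of 45 members and 0% of all genes. At an unadjusted p under 0.05 it gave 9 members (20%, 6 higher and 3 lower), against 1.2% of all genes, and without library 2 of BR cells with SI-2 it gave 10 members against 3.5%. DESeq2 called a single gene of 13896 (0.0072%), and that gene was CORO7-PAM16. The median log2 fold change was 0.09 for the members and -0.00 for all genes (-0.000995). Its median absolute value was 0.42 for the members, 0.13 for all genes and 0.09 for the sums. At least 2-fold differences were seen in 13 members (16 without library 2 with SI-2) and 0 sums, and 0 of 45 sums and 0 of 85 parents had an unadjusted p under 0.05.

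CORO7-PAM16 had 173 and 57.3 counts in BR cells with vehicle and 0.01 and 0 with SI-2, at least 38.9-fold lower against the floor. The floor covers counting error only, and not reads of the locus that were placed on a parent. The limit of 38.9-fold rests on vehicle libraries that lay far apart. It was 59.3-fold with the first of them alone and 18.5-fold with the second. The adjusted p was 0.508 with edgeR and 1.13e-05 with DESeq2 (1.13e-05 to 1 over all alternatives). Without BR vehicle library 2 edgeR gave 0.0137, and without BR SI-2 library 2 it gave 0.913. CORO7 had 6168 and 6249 counts with vehicle and 5894 and 6561 with SI-2, a log2 fold change of -0.03 ± 0.21, and PAM16 had 224 and 204 against 206 and 215, a change of -0.06 ± 0.20. That of the locus sum was -0.06 ± 0.21 (edgeR adjusted p = 1). The 57.3 to 173 counts in the vehicle libraries were 0.880% and 2.63% of the locus. Among the transcripts, the 2 main CORO7 forms kept 2814 to 3311 counts each in the BR libraries with SI-2.

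**Figure D5:**
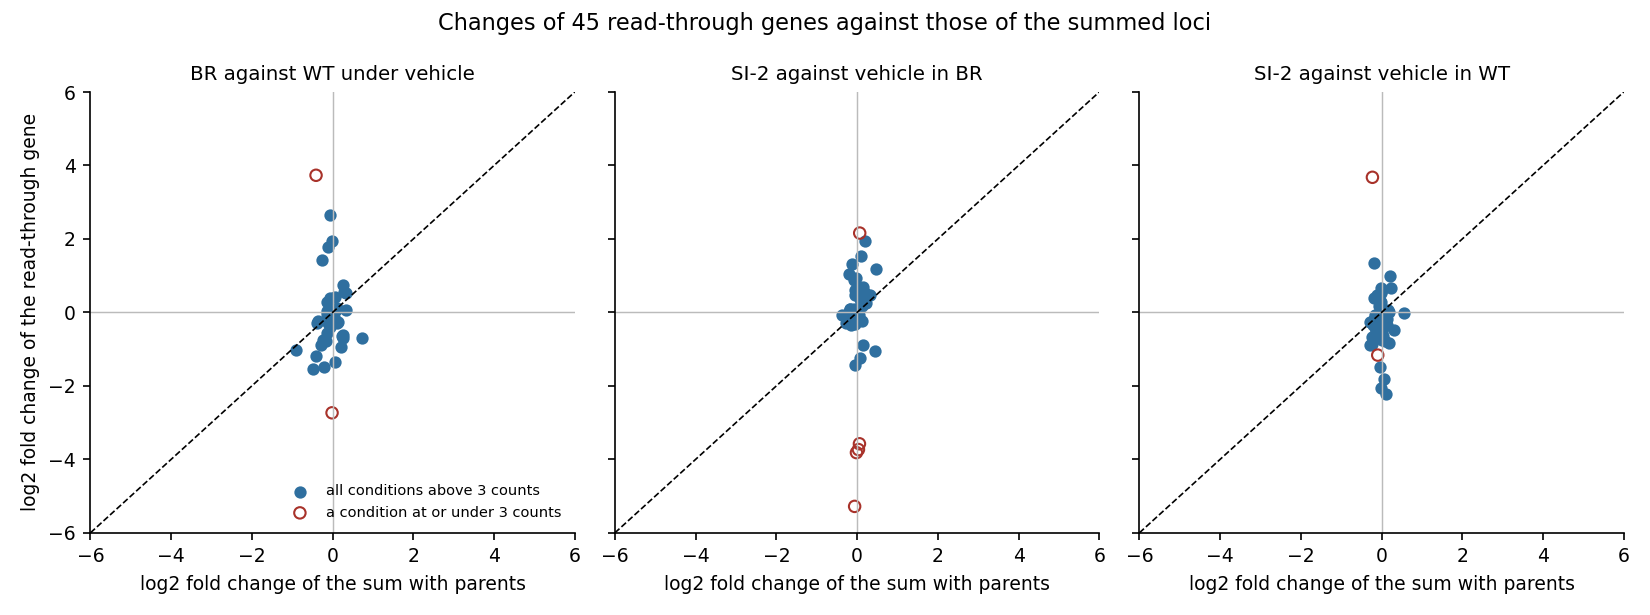
Log2 fold change of 45 read-through genes (vertical) against that of the sum with their parents (horizontal) in 3 comparisons, with the line of equality. Open circles are members with a condition at or under 3 counts, drawn with that condition at the floor of 3 counts. The points form a vertical band, with 0 sums but 11, 13 and 7 members at least 2-fold apart. The share of all genes at least 2-fold apart was not counted.

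TRIM39-RPP21 lay the other way in the same comparison, with 0 in both BR vehicle libraries and 17.8 and 9.49 counts with SI-2. From the mean of the SI-2 libraries that is at least 4.47-fold higher against the floor, which covers counting error only. The limit was 5.94-fold with BR SI-2 library 1 alone and 3-fold with library 2 alone. Its edgeR adjusted p was 1 and that of DESeq2 0.516. C8orf44-SGK3 had 88.9 and 140 counts with SI-2, a log2 fold change of 1.05 ± 0.28 (edgeR adjusted p = 1), and 0.73 without library 2 of BR cells with SI-2.

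In WT cells with SI-2 against vehicle, edgeR called 0 of 45 members and 0% of genes, and at an unadjusted p under 0.05 it gave 9 members (20%, 2 higher and 7 lower) against 0.533% of all genes. DESeq2 called 0 members and 0.0072% of genes. The median log2 fold change of the members was -0.17, with 0.00 for all genes (0.000527), and 7 members but 0 sums differed at least 2-fold. The median absolute log2 fold change was 0.47 for the members, 0.12 for all genes and 0.13 for the sums. Of the sums, 0 had an unadjusted p under 0.05, and of the 85 parents, 2. CORO7-PAM16 had 215 and 226 counts with vehicle and 77.0 and 51.3 with SI-2, a log2 fold change of -1.80 ± 0.49 with an edgeR adjusted p of 1. Its sum had a log2 fold change of 0.06 ± 0.21. C8orf44-SGK3 had 127 and 178 counts with vehicle and 81.4 and 90.2 with SI-2, a log2 fold change of -0.85 ± 0.27. ZNF765-ZNF761, which joins a pair of zinc finger genes, had 60.1 and 52.8 against 31.4 and 35.7 (-0.77 ± 0.30). Neither pair of groups overlapped, which was so for 13 members lower with SI-2 and 3 higher (all genes not counted). The edgeR adjusted p was 1 for both genes.

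Whether SI-2 acted differently in BR and WT cells was tested as an interaction. edgeR called 0 of 45 members and 0% of genes, with 10 members (22.2%, 7 higher and 3 lower) at an unadjusted p under 0.05 against 0.533% of all genes, and 0 of 45 sums. DESeq2 called CORO7-PAM16 alone (0.0072% of genes), with an adjusted p of 0.0343, where edgeR gave 1. Since CORO7-PAM16 was at the floor in BR cells with SI-2, its fitted difference depended on the prior count. The difference was 1.90 ± 0.39 for C8orf44-SGK3 (edgeR adjusted p = 1, DESeq2 adjusted p = 0.887). For TRIM39-RPP21 the edgeR adjusted p was 1. The median over the members was 0.25 and over all genes -0.01. In absolute value the median was 0.80 for the members, 0.10 for all genes and 0.07 for the sums. The number of members at least 2-fold apart was 19 (20 without library 2 of BR cells with SI-2), and that of the sums was 0.

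Over both treatments, BR cells differed from WT cells in 18 of 13896 genes by edgeR (0.13%), none of them a member or a parent. At an unadjusted p under 0.05 there were 8 members (17.8%, 1 higher and 7 lower in BR) against 10.2% of all genes, and 9 of the 45 sums and 11 of the 85 parents. Without library 2 of BR cells with SI-2 the members numbered 6, against 7.85% of genes. DESeq2 called 3 members, ANKHD1-EIF4EBP3, CORO7-PAM16 and TRIM39-RPP21, where its share of all genes was 1.16%. For 0 members did all 4 BR libraries lie above all 4 WT libraries (all genes, 3.74%), and for 2 members did they lie below (all genes, 4.33%). These were TRIM39-RPP21 and CHURC1-FNTB, the latter named after its values had been seen. Without library 2 of BR cells with SI-2 these numbers of members were again 0 and 2.

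CORO7-PAM16 had scaled counts of 145 ± 93.3 in WT and 58.3 ± 83.8 in BR cells (SD, n = 4), and its groups overlapped. The adjusted p was 0.0588 with edgeR and 2.71e-06 with DESeq2 (2.71e-06 to 0.568 over all alternatives), and with edgeR it was 0.0261 without BR vehicle library 1 and 0.237 without BR SI-2 library 2. Its locus sum had a log2 fold change of 0.15 ± 0.15. TRIM39-RPP21 had scaled counts of 24.4 ± 7.16 in WT and 6.70 ± 8.54 in BR cells (SD, n = 4), with an adjusted p of 0.0638 by edgeR and 0.00292 by DESeq2, and its locus sum had a log2 fold change of 0.03 ± 0.13. ANKHD1-EIF4EBP3 had 1531 ± 242 and 1081 ± 216 scaled counts, a log2 fold change of -0.51 ± 0.13 (edgeR adjusted p = 0.267, DESeq2 adjusted p = 0.0491). CHURC1-FNTB, which includes the gene of the farnesyltransferase beta subunit, had 255 to 353 counts in WT and 203 to 243 in BR cells.

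The genes that end transcription and those that remove aberrant transcripts were examined in the same fit. Of 36 genes of 3′ end processing and termination, 0 were called by edgeR in any comparison, and at an unadjusted p under 0.05 the only ones were CSTF1 and PPP1CB, in BR against WT cells over both treatments. CSTF1, a subunit of the cleavage stimulation factor, had 1086 to 1542 counts in WT and 1311 to 1703 in BR cells, a log2 fold change of 0.31 ± 0.13 (edgeR adjusted p = 0.474). PPP1CB, a protein phosphatase 1 catalytic subunit, had a change of 0.26 ± 0.11. WDR33, which binds the polyadenylation signal, had 0.27 ± 0.12. The medians of the list lay between -0.02 and 0.09 over the 5 comparisons. Of 19 genes of nonsense-mediated decay, 0 were called by edgeR, and RNPS1 alone had an unadjusted p under 0.05, again in BR against WT cells over both treatments. RNPS1, a component of the exon junction complex, had 3187 to 5145 counts in WT and 4586 to 6910 in BR cells (0.49 ± 0.17, edgeR adjusted p = 0.407), and the medians of that list lay between -0.03 and 0.12.

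At the threshold of 10 counts, the 2 members just inside were NT5C1B-RDH14 (mean 11.2), from a nucleotidase and a retinol dehydrogenase gene, and PALM2-AKAP2 (mean 11.005), which ends in a gene for an anchor of protein kinase A. PALM2-AKAP2 had 10.98 and 0 counts in WT cells with vehicle, 10.98 and 0 with SI-2, 33.1 and 10.99 in BR cells with vehicle, and 0 and 21.98 with SI-2, beside 3596 to 7999 for AKAP2. NT5C1B-RDH14 was at 0 in BR vehicle library 1 and had 6 to 20.7 counts elsewhere. Just outside were ST20-MTHFS (mean 8.83) and NDUFC2-KCTD14 (mean 8.65).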

How the data were processed

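The members, the gene lists and the tests were chosen with earlier results of these data known. The authors deposited estimated counts and FPKM values per gene and per transcript; the submitters' processing notes name BWA, Bowtie2, RSEM and hg19 without roles or versions. RSEM divides reads that fit several transcripts, so counts need not be whole. Reads were sequenced on the BGISEQ-500 platform. FPKM, computed by the authors, divides a count by length and depth. Their 8 columns of condition averages, and tables of their own comparisons (fold changes and p-values), were not used.

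Counts were rounded, filtered by filterByExpr (13896 genes), scaled by TMM and tested in edgeR 4.0.16 (R 4.3.3) by its quasi-likelihood F-test, with 1 fit over the 4 conditions with Benjamini-Hochberg adjustment. Standard errors came from the fold change and its F statistic. Alternatives were upper-quartile scaling, library size only, no filter, a CPM of at least 1 in 2 libraries, DESeq2 1.42.0, limma 3.58.1 on log2(FPKM + 1) and log2(FPKM + 0.1), the replicate number as a block, summed loci, 2 groups of 4 libraries, only the 4 libraries compared, and omission of each library. The edgeR fit was tested on simulated counts and the window count on random sequences. The joining of loci and the spread were tested on small made-up examples. DESeq2 and limma had no such test.

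With library totals from 17997771 to 18570027, 3 counts were taken as the limit that a count of 0 allows for counting error alone. Transcript windows and junctions were read from GENCODE v29 (GRCh38), matched to 35 of 45 members by RefSeq accession, and no coordinate was converted. Transcript lengths were not compared with those used for the counts. The genes named were CORO7-PAM16, members called by edgeR or DESeq2, the 3 with the smallest unadjusted p in each comparison, the 5 with the highest counts, the 5 with the largest shares, the 5 with a mean of at least 50 whose replicates parted most, those next to the threshold, and their parents.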

Additional observations from a re-analysis of the deposited data

Results flagged for a closer look

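The effect of SI-2 on CORO7-PAM16 differed between BR and WT cells by DESeq2's test of the interaction (adjusted p = 0.0343), the only gene of 13896 called in that test, while edgeR gave an adjusted p of 1. The counts were 215, 226, 77.0 and 51.3 in WT cells (2 with vehicle, then 2 with SI-2) and 173, 57.3, 0.01 and 0 in BR cells, so that all SI-2 libraries lay below the vehicle libraries of the same line in both lines. The interaction of the summed locus was -0.12 ± 0.29 (log2, SE) with an edgeR adjusted p of 1.

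C8orf44-SGK3 moved in opposite directions with SI-2, higher in both BR libraries and lower in both WT libraries than under vehicle, and the log2 difference between these effects was 1.90 ± 0.39 (SE). The test of this difference missed the threshold with edgeR (adjusted p = 1) and with DESeq2 (adjusted p = 0.887). For the summed locus the difference was 0.04 ± 0.40. Without library 2 of BR cells with SI-2, where fibroblast and epithelial markers were higher, the difference was 1.59.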

How the results depend on the processing

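The number of read-through genes called was 0 in each of the 5 comparisons with edgeR and differed as follows. Under vehicle, BR against WT gave 3 with DESeq2 (of 28 genes in all) and 1 with limma on log2(FPKM + 0.1) (of 4). SI-2 against vehicle in BR and the interaction each gave 1 with DESeq2, CORO7-PAM16. BR against WT over both treatments gave 1 with upper-quartile scaling (of 27 genes called), 1 with library size only (of 25), 2 with no filter (of 37), 1 with limma on log2(FPKM + 0.1) (of 14) and 3 with DESeq2 (of 161), where edgeR called 18 genes and 0 members. Leaving out each library gave 0 to 1 for SI-2 in BR, 0 to 1 for BR against WT over both treatments, and 0 elsewhere; the calls were CORO7-PAM16 without BR vehicle library 2 (of 1 gene called) and without BR vehicle library 1 (of 3). With the replicate number as a block, the count over both treatments was 1 of 36 genes (CORO7-PAM16, edgeR adjusted p = 0.0427), and it was 0 in the other 4 comparisons. Deviations of same-numbered libraries correlated at 0.44 between the WT conditions and at 0.37 between the BR conditions. Between the lines they correlated at -0.12 to 0.20. The main fit did not take the numbers to pair the samples. Whether same-numbered libraries of a line shared a culture was not tested, and no block within each line was fitted. Summed with their parents, 6 changes of named members turned direction: CORO7-PAM16 to 0.21 (BR against WT under vehicle), 0.0586 (SI-2 in WT) and 0.15 (BR against WT over both treatments), C8orf44-SGK3 to -0.19 (SI-2 in BR), ZNF765-ZNF761 to 0.0744 (SI-2 in WT) and TRIM39-RPP21 to 0.0294 (BR against WT over both treatments), all on the log2 scale. Of the other values of named members under the alternatives, 261 kept their direction and side of the threshold and 17 passed it. Size did not enter this count. CORO7-PAM16 with SI-2 in BR counted as kept when its log2 fold change of -9.86 became -0.0607 for the summed locus. The median spread between replicates was 0.43 for members with a mean of at least 50 counts and 0.21 for the sums, against 0.50, and 0.496 to 0.501 when each library was left out. The cause of these shifts was not tested.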

Other observations

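The other 14 read-through symbols had a mean count under 10 and entered none of the comparisons above. Several of these, too, were counted in a few libraries and were empty elsewhere. TMEM189-UBE2V1, which ends in a gene for a ubiquitin-conjugating enzyme variant, had 38.9 counts in WT SI-2 library 2 and at most 0.4 in the other 7. WRB-SH3BGR had 45 counts in BR vehicle library 1, 10.46 in WT vehicle library 1 and 0 in the other 6. ST20-MTHFS, which includes a gene of folate metabolism, had 19.5 and 0, 0 and 0, 0 and 16.1, and 25.1 and 9.96 counts in WT vehicle, WT SI-2, BR vehicle and BR SI-2. NDUFC2-KCTD14, from a gene of a respiratory complex I subunit, had 0.5 to 17.1 counts and was above 0 in every library.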
